A study of Mus musculus with 6 samples.

Results

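The 34 genes described here control or carry out apoptosis and were taken, by symbol, from the 23366 genes counted in each library: 18 genes of the BCL2 family, 7 genes of the caspases and the apoptosome, 4 inhibitor of apoptosis (IAP) genes, 3 death receptor adaptors, and *Trp53* with its regulator *Mdm2*. They were measured by RNA-sequencing in EpCAM-positive small intestine epithelium from E13.5 mouse embryos (embryonic day 13.5), in 3 mutant (*Shh-cre-egfp:Tcf7l1 lox/lox*) and 3 wild type libraries of 500 sorted cells each. The question behind the comparison was which genes change when the epithelium loses TCF7L1, a DNA-binding factor of the WNT pathway that mostly acts as a repressor. In the mutants Cre is expressed from the *Shh* locus, which is active in the gut epithelium, and removes a floxed exon of *Tcf7l1*. The control group is labelled wild type, and no group with Cre alone was analysed here. None of the embryos was treated. The samples are given as biological replicates, without saying whether a library came from 1 embryo or from several.

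Apoptosis is run by 2 linked routes. In the mitochondrial route, BH3-only proteins such as NOXA (*Pmaip1*), PUMA (*Bbc3*) and BIM (*Bcl2l11*) occupy the guardian proteins BCL2, BCL-XL (*Bcl2l1*) and MCL1, which otherwise hold the effectors BAX and BAK in check. Active effectors open the outer mitochondrial membrane, cytochrome c (*Cycs*) leaves the organelle and builds the apoptosome with APAF1 and caspase 9, and the executioner caspases follow. In the death receptor route, the adaptors FADD and TRADD recruit caspase 8, which FLIP (*Cflar*) restrains. In the gut, apoptosis removes damaged stem cells at the crypt base and shed cells at the surface, and p53 is the classic inducer of *Bbc3*, *Pmaip1* and *Bax*.

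The BCL2 family is defined by short helices of which BH3 is the one that its opposing sides use to bind each other, so its coding sequence is shown for 3 pro-apoptotic and 3 guardian genes. Each line gives 15 codons, 5′ to 3′, from GENCODE M1 protein-coding transcripts (mm9), with the conserved leucine codon and the glycine and aspartate codons in capitals. They were found by searching the 18 translated family members for leucine, any 3 residues, glycine, aspartate and then an acidic residue or glycine.
Bax: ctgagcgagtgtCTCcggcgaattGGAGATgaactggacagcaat
Bid: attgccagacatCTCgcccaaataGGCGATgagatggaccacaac
Bcl2l11: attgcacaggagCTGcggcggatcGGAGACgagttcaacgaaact
Bcl2: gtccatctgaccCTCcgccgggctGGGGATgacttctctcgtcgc
Bcl2l1: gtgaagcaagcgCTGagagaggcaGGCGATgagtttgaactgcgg
Mcl1: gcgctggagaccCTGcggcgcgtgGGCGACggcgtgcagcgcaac
The pattern occurred in 10 of the 18 genes, on both sides of the family. It was found in all 3 effector genes (*Bax*, *Bak1*, *Bok*), in *Bid*, *Bik*, *Hrk* and *Bcl2l11*, and in the guardians *Bcl2*, *Bcl2l1* and *Mcl1*. These letters were not matched in *Bad*, *Bmf*, *Bbc3*, *Pmaip1*, *Bcl2l2*, *Bcl2l12*, *Bcl2l13* or *Bcl2l14*.

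Total counts ranged from 18216537 to 20397278 per library, and 12501 genes passed the filter on low counts. *Tcf7l1* fell from 438 ± 64.1 to 49.1 ± 21.1 normalised counts (SD, n = 3), which is 11.2% of the wild type level. *Shh*, the locus that carries Cre, also fell, by 1.28 on the log2 scale, and Cre and the loss of *Tcf7l1* cannot be told apart. *Xist* had 0 counts in the wild type libraries and *Ddx3y* had 0 counts in the mutant libraries, so sex and genotype cannot be told apart either. All 8 epithelial markers were detected in both groups, with summed levels of 7501.2 to 7565.4 CPM (counts scaled to the library total) in wild type and 6391 to 6516.9 CPM in mutants. *Epcam* was higher in the mutants (log2 fold change 0.25), while *Krt18*, *Cdh1* and *Cdx2* were lower (-0.54, -0.57 and -0.68). Markers of other cells were low in both groups, with sums of 68 to 86.4 CPM in wild type and 51 to 72.7 CPM in mutants for 8 mesenchymal genes, mostly from *Vim*, and of at most 3.03 CPM for 8 blood and macrophage genes, 3 of them at 0. Single mesenchymal genes moved apart: *Vim* (log2 fold change -0.46, adjusted p = 0.00494) and *Col3a1* (-2.21, 0.0263) fell, while *Acta2* rose 2.87-fold (0.0142), from 69.4, 105.3 and 87.4 to 95.3, 171.5 and 488.9 normalised counts. The sums were 0 to 1.02 CPM over both groups for 4 endothelial genes, 3 of them at 0, and 8.71 to 12.7 CPM for 5 neural crest and glial genes. The part of these differences in the results on apoptosis genes was not tested.

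Past an adjusted p of 0.05, genes moved in both directions among the guardians (1 higher and 2 lower) and the caspase and apoptosome genes (1 and 1), and no effector, IAP, death receptor adaptor or p53 axis gene passed. Of the 34 genes, 33 passed the filter, and *Hrk* did not (6, 4 and 0 counts in wild type and 0 in each mutant library). A gene was called when its adjusted p was under 0.01, its log2 fold change was at least 0.5 in either direction and its mean normalised count was at least 50. *Pmaip1* and *Cycs* were called higher, and *Bcl2l1* and *Casp9* were called lower, 12.1% of the 33, against 8.62% of all genes tested (2.78% higher and 5.83% lower). With the limit set at an adjusted p of 0.05 and any fold, 3 apoptosis genes were higher, the additional one being *Mcl1*, and 6 were lower, adding *Bcl2*, *Bcl2l12*, *Bcl2l13* and *Bcl2l14*. This is 27.3% of the 33, against 28.7% of all genes (13.6% higher and 15.1% lower). Mutant and wild type libraries were fully separated in 15 of the 33 genes, 5 higher and 10 lower in the mutants, or 45.5% against 43.0% of all genes (20.8% higher and 22.2% lower). The shares of apoptosis genes are thus near those of the whole table, and the results below concern single genes. Every adjusted p comes from edgeR (quasi-likelihood test) and was corrected over the 12501 genes by the Benjamini-Hochberg method. In RNA from a pool of cells, a lower value can mean fewer cells of a type or less RNA per cell, which cannot be told apart.

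**Figure D1:**
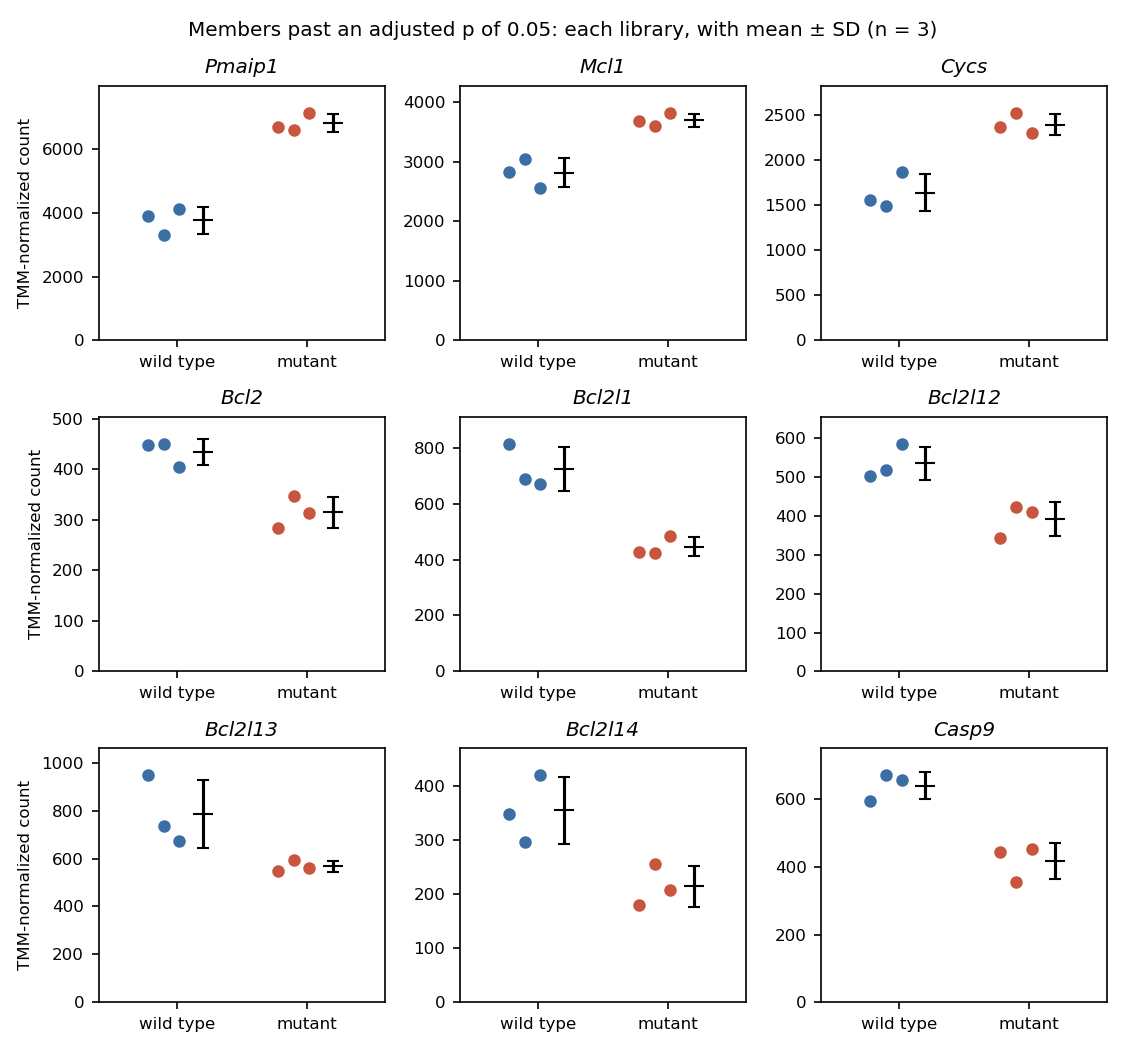
Normalised count (vertical axis, from 0) of the 9 apoptosis genes with an adjusted p under 0.05, with a point for each wild type (blue) and mutant (red) library and the mean ± SD (n = 3) as a black bar. In all 9 panels the mutant and wild type points do not overlap: *Pmaip1*, *Mcl1* and *Cycs* are higher in mutants and the other 6 are lower.

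The guardians, which bind and restrain BAX and BAK, split. *Bcl2l1*, which encodes BCL-XL (chr2:152593052-152657464 in mm9, minus strand), had 812.1, 688 and 671 normalised counts in the wild type libraries and 427.6, 423.8 and 484.5 in the mutants. Every mutant library was below every wild type library. *Bcl2l1* fell by 0.70 on the log2 scale (SE 0.13, 95% interval -0.98 to -0.42, adjusted p = 0.00122), and without wild type replicate 1 the value was -0.61 with an adjusted p of 0.012. *Mcl1*, whose short-lived protein has its own set of BH3-only partners (chr3:95462643-95467099, plus strand), went the other way. Its counts were 2836.7, 3047.6 and 2560.5 in wild type and 3687.2, 3601.6 and 3817.5 in mutants, with no overlap. *Mcl1* rose 1.32-fold (log2 0.40, SE 0.08, 95% interval 0.23 to 0.56, adjusted p = 0.00196), which is under the fold set for a call.

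*Bcl2*, the founding member of the family (chr1:108434755-108610851, minus strand), had 448.2, 449.4 and 403.9 normalised counts in wild type libraries and 283.7, 346.1 and 314.2 in mutants. The groups did not overlap, and *Bcl2* fell by 0.46 on the log2 scale (SE 0.15, adjusted p = 0.0314). The adjusted p rose to 0.1 without wild type replicate 1, to 0.091 without wild type replicate 2, to 0.12 without mutant replicate 1 and to 0.078 without mutant replicate 3, while the fold stayed between -0.54 and -0.39. *Bcl2l2* (BCL-W) was scarce at 73.3 ± 5.9 counts in wild type and 60.1 ± 8.66 in mutants, its libraries overlapped, and its difference had a 95% interval of -0.96 to 0.39. Part of *Bcl2l2*, 594 bases of exon, lies in another gene of the same strand.

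Expressed per exon length and library total (RPKM), *Mcl1* was the most abundant guardian in both groups. The length joins all annotated exons of a gene and can exceed that of its longest transcript. It is 4734 bases for *Bcl2l1*, whose longest protein-coding transcript has 2417, and 3485 by either measure for *Mcl1*. Levels and ratios between genes depend on this choice, while a comparison of groups within a gene does not unless it is corrected for length. The level of *Mcl1* was 41.4 ± 3.56 RPKM in wild type, against 7.84 ± 0.836 for *Bcl2l1*, 3.09 ± 0.185 for *Bcl2* and 0.843 ± 0.0679 for *Bcl2l2*. In the mutants these levels were 54.5 ± 1.61, 4.82 ± 0.37, 2.24 ± 0.225 and 0.691 ± 0.0996 RPKM, in the same order. The ratio of *Mcl1* to *Bcl2l1* was 4.74, 6.02 and 5.18 in the wild type libraries and 11.7, 11.5 and 10.7 in the mutant libraries. The ratio of *Mcl1* to *Bcl2* was 13.4 ± 0.534 in wild type and 24.5 ± 2.73 in mutants. These pairs were chosen after their values were seen and are given as a description, with no test.

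Of the effectors, which form the pore in the outer mitochondrial membrane, *Bax* was abundant and *Bak1* was scarce. *Bax* (chr7:52717065-52722268, minus strand) had 2900.5, 3001.9 and 3059.4 normalised counts in wild type libraries and 3402.4, 3466.3 and 3330.7 in mutants. All 3 mutant libraries were above all wild type libraries, by a small amount: the log2 fold change was 0.19 (95% interval 0.04 to 0.34) and the adjusted p was 0.0597. Without wild type replicate 3 the same gene had a log2 fold change of 0.22 and an adjusted p of 0.016, and with all libraries DESeq2 gave 0.022. *Bak1* had between 29.8 and 39.9 normalised counts in wild type and between 23.2 and 38.3 in mutants, too few to set its difference more narrowly than -1.14 to 0.86. *Bok*, a BAX relative that is less dependent on the guardians, had 498.9, 476.4 and 403.9 counts in wild type libraries and 529.1, 512.2 and 717.9 in mutants. Its libraries did not overlap, although the mutant that stood highest was far from the other two, and it did not pass the test (log2 fold change 0.35, adjusted p = 0.102). Per length, *Bax* stood at 114.4 ± 3.09 RPKM in wild type and *Bak1* at 0.709 ± 0.123 RPKM.

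Among the 8 BH3-only genes, the sensors that start the mitochondrial route, a single one passed the test. *Pmaip1*, which encodes NOXA and lies on chromosome 18, had 3900.1, 3302.1 and 4108.7 normalised counts in wild type libraries and 6694.1, 6598.2 and 7125 in mutants. The lowest mutant library was well above the highest wild type library. *Pmaip1* rose 1.81-fold (log2 0.85, SE 0.08, 95% interval 0.68 to 1.03, adjusted p = 2.6e-06). NOXA binds MCL1 in preference to BCL-XL, and the ratio of *Pmaip1* to *Mcl1* in RPKM was 1.81, 1.43 and 2.11 in wild type and 2.39, 2.41 and 2.46 in mutants, again as a description. *Bbc3* (PUMA), the other BH3-only gene best known as a p53 target, had 294.1 ± 33.8 counts in wild type and 314.8 ± 47.5 in mutants, with overlapping libraries and a 95% interval of -0.27 to 0.47.

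*Bcl2l11* (BIM), which activates BAX directly and binds every guardian, had 307.6, 297.4 and 231.9 counts in wild type libraries and 182.2, 218.3 and 253.3 in mutants. The groups overlapped in 1 library on each side, and the log2 fold change was -0.36 (adjusted p = 0.176). *Bid*, the link from caspase 8 to the mitochondrion, had 1642.1 ± 35.5 (wild type) and 1559.9 ± 32.9 (mutant) counts, with a 95% interval of -0.25 to 0.11. *Bad*, whose protein is held inactive by phosphorylation under growth factor signalling, had 803.7 ± 42.1 and 778.9 ± 61.8. Neither passed the test, the interval of *Bad* being -0.29 to 0.20. *Bmf*, which responds to loss of cell attachment, had 36.6, 32.6 and 23.8 counts in wild type libraries and 9.32, 16 and 21 in mutants, without overlap but with a 95% interval of -2.19 to 0.18. *Bik* was as scarce, at 32.8 ± 12 and 34.1 ± 15.4 counts, and *Hrk* was at or near 0 in every library.

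The 3 BCL2-like genes whose part in cell death is unsettled moved together, and all were lower in the mutants. *Bcl2l14* (BCL-G) had 348.8, 296.5 and 420.1 normalised counts in wild type libraries and 180.2, 255.6 and 208 in mutants. *Bcl2l14* fell by 0.73 on the log2 scale (SE 0.19, adjusted p = 0.0102), just short of the threshold for a call, and without mutant replicate 1 its adjusted p was 0.051. *Bcl2l13* (BCL-RAMBO), a mitochondrial membrane protein that also acts as a mitophagy receptor, had 947.1, 736.5 and 673.9 counts in wild type libraries and 546.7, 593.2 and 560.8 in mutants. It fell by 0.47 (SE 0.14, adjusted p = 0.0181), a value that leaned on wild type replicate 1, without which it was -0.31 with an adjusted p of 0.13. The adjusted p of *Bcl2l13* was also over 0.05 without mutant replicate 1 (0.063) and without mutant replicate 3 (0.053), and was 0.0061 without wild type replicate 3, when the gene would be called at a log2 fold change of -0.56.

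*Bcl2l12*, whose protein has been tied to p53 and caspase control, had 503.6, 519.3 and 584.5 counts in wild type libraries and 343.8, 423.8 and 409.3 in mutants. Its libraries did not overlap, and it fell by 0.45 (SE 0.14, adjusted p = 0.0281). Leaving out any library but mutant replicate 2 put its adjusted p over 0.05: 0.051, 0.058 and 0.072 without wild type replicates 1, 2 and 3, and 0.12 and 0.054 without mutant replicates 1 and 3. Exons of the opposite strand cover 33.4% of *Bcl2l12* (from *Irf3* and *Gm15545*). *Bid* and *Bcl2l13* share 628 bases of exon on opposite strands, 17.7% of the one and 9.06% of the other. Opposite-strand exons of other genes also cover 25.8% of *Bad*, 23.5% of *Diablo* and 14.8% of *Bak1*. They cover 7.76% of *Bcl2*, 6.12% of *Fadd*, 3.77% of *Birc6* and 1.81% of *Casp9*. Whether reads were counted by strand is not given in the sources used here, so reads of these genes and their neighbours may be mixed.

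**Figure D2:**
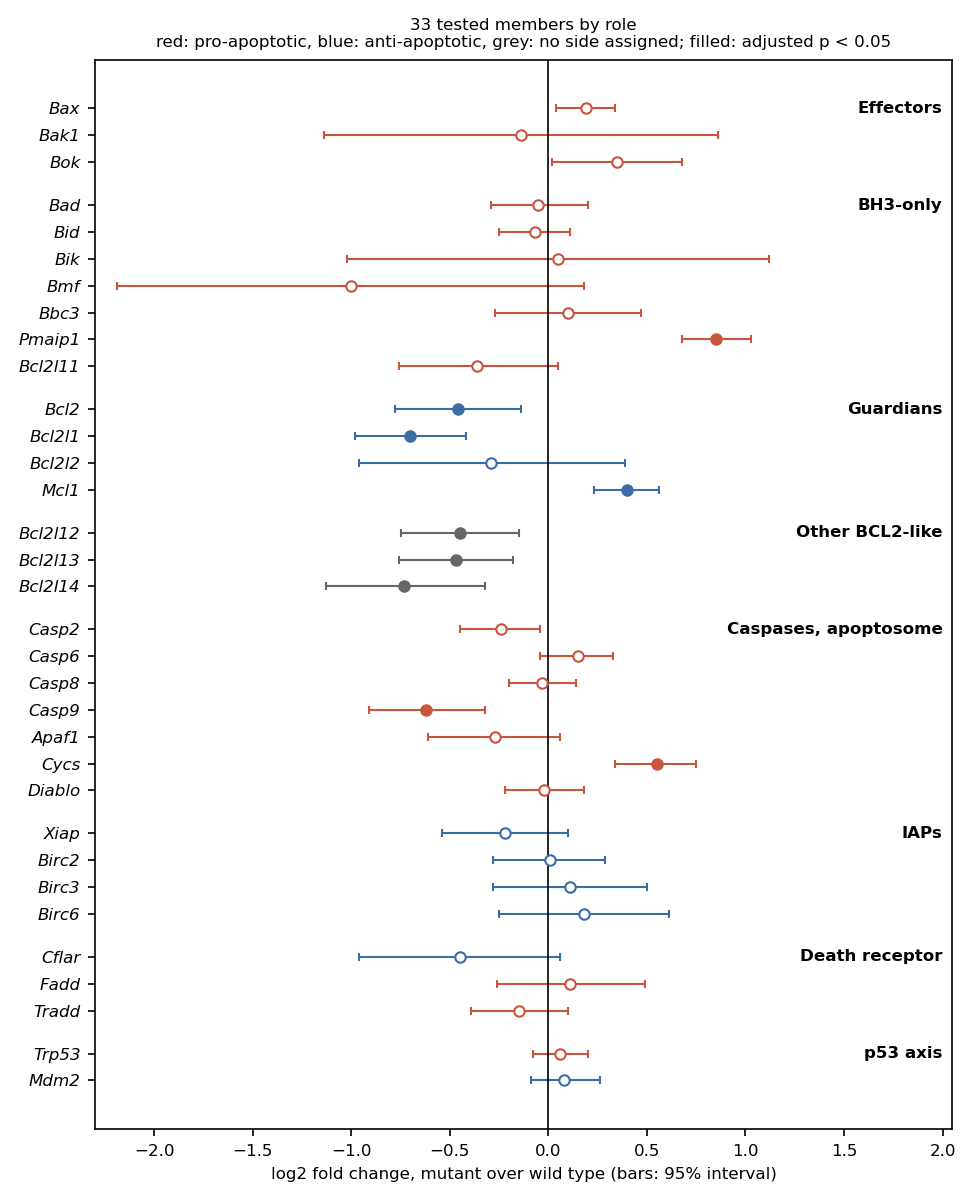
The log2 fold change of mutant over wild type (horizontal axis) with its 95% interval for the 33 apoptosis genes tested, grouped by role and filled where the adjusted p is under 0.05. Pro-apoptotic genes (red) and anti-apoptotic genes (blue) lie on both sides of 0, and the 3 genes with no assigned side (grey) lie at -0.45, -0.47 and -0.73.

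The apoptosome genes also split. *Cycs* (chr6:50512562-50516537, minus strand) encodes cytochrome c, which shuttles electrons in respiration and triggers the apoptosome once released. It had 1552, 1489.8 and 1868.6 normalised counts in wild type libraries and 2363.9, 2514.3 and 2290.9 in mutants, with no overlap. *Cycs* rose 1.46-fold (log2 0.55, SE 0.10, 95% interval 0.34 to 0.75, adjusted p = 0.000698), and without wild type replicate 2 its log2 fold change was 0.48, under the limit for a call, at an adjusted p of 0.0055. *Casp9* (chr4:141349527-141371891, plus strand), the initiator caspase that the apoptosome activates, had 594.5, 671.2 and 656.8 counts in wild type libraries and 443.2, 355.7 and 454.6 in mutants. Every mutant library was below every wild type library, and *Casp9* fell by 0.62 (SE 0.14, 95% interval -0.91 to -0.32, adjusted p = 0.00413). Its adjusted p was 0.01 without wild type replicate 1, 0.022 without wild type replicate 2, 0.012 without mutant replicate 1 and 0.025 without mutant replicate 2, each no longer a call but under 0.05.

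*Apaf1*, the scaffold of the apoptosome, had 550.5, 618.1 and 436.2 counts in wild type libraries and 481.5, 470.7 and 375 in mutants, which overlapped (log2 fold change -0.27, adjusted p = 0.211). *Diablo*, whose protein relieves caspases of their inhibitors, had 2701.8 ± 323 (wild type) and 2665 ± 219.2 (mutant) counts and a 95% interval of -0.22 to 0.18. The RPKM ratio of *Cycs* to *Casp9* was 3.99, 3.39 and 4.34 in the wild type libraries and 8.14, 10.8 and 7.69 in the mutants, a pair chosen after its values were seen. Among the other caspases, none passed the test. *Casp2*, an initiator linked to DNA damage, had 1830.5, 1911.1 and 1535 counts in wild type libraries and 1487.9, 1450.4 and 1523.2 in mutants, with a log2 fold change of -0.24 and an adjusted p of 0.0717. *Casp6*, an executioner that cleaves lamins, had 6871.9, 6884.8 and 8683.2 counts in wild type libraries and 8116.8, 8607.7 and 8097.3 in mutants, with overlap through wild type replicate 3. Without that library the adjusted p was 0.0012 for *Casp6* (log2 fold change 0.28) and 0.0086 for *Casp2* (-0.32). *Casp8*, the initiator of the death receptor route, had 2689.8 ± 137.8 (wild type) and 2642.1 ± 178.6 (mutant) counts and a 95% interval of -0.20 to 0.14.

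The 4 IAP genes, whose products block caspases or direct their ubiquitination, gave no difference past the test. *Birc2* (cIAP1) had 930.7 ± 127.8 normalised counts in wild type and 935.2 ± 148.6 in mutants, with a 95% interval of -0.28 to 0.29. *Birc3* (cIAP2) had 268.7 ± 21.9 and 290 ± 62, with an interval of -0.28 to 0.50. *Birc6*, a very large ubiquitin ligase gene, varied from 224.3 to 445.6 counts among the wild type libraries alone, and its interval was -0.25 to 0.61. *Xiap*, the direct caspase inhibitor, had 442 ± 66.7 (wild type) and 379.5 ± 8.26 (mutant) counts, with an interval of -0.54 to 0.10. *Xiap* lies on the X chromosome, on which the groups also differ in sex.

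In the death receptor complex, *Cflar* (FLIP), the inhibitor of caspase 8, had 131.3, 151 and 131.2 counts in wild type libraries and 83.9, 108.6 and 109.5 in mutants. The groups did not overlap, but its log2 fold change of -0.45 had a 95% interval of -0.96 to 0.06 (adjusted p = 0.172). *Fadd*, the adaptor that recruits caspase 8, had 214.9 ± 9.89 (wild type) and 232.5 ± 6.77 (mutant) counts, and *Tradd*, the adaptor of the TNF receptor, had 832 ± 46.7 and 752.2 ± 83. Neither passed the test, with intervals of -0.26 to 0.49 and -0.39 to 0.10.

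*Trp53* had 6870, 6553.8 and 7011.4 normalised counts in wild type libraries and 7059.6, 6944.3 and 7316.4 in mutants, which overlapped. Its 95% interval of -0.08 to 0.20 lay below those of *Mcl1*, *Cycs* and *Pmaip1*. *Mdm2*, which encodes the ubiquitin ligase that degrades p53 and is itself a p53 target, had 2475.3 ± 234.1 (wild type) and 2623.4 ± 60.2 (mutant) counts and an interval of -0.09 to 0.26. A near-identical copy covers 62.7% of the *Trp53* transcript and copies cover 40% of that of *Cycs*, so the level of both depends on how uniquely mapping reads were kept. Transcript levels carry no information on the stability of the p53 protein.

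Across all tested apoptosis genes the level per length spanned from *Casp6*, at 228.9 ± 31.9 RPKM in wild type, to *Bmf*, at 0.303 ± 0.0641 RPKM. After *Casp6* came *Bax* at 114.4 ± 3.09, *Trp53* at 86.4 ± 2.97, *Pmaip1* at 73.1 ± 8.1, *Casp8* at 49.7 ± 2.58 and *Mcl1* at 41.4 ± 3.56 RPKM. A middle group of *Mdm2*, *Cycs*, *Bid*, *Tradd* and *Diablo*, with means of 25, 24.7, 23.7, 22.8 and 22.5 RPKM and SDs of 0.503 to 3.1, did not differ from one another beyond their spread. In the mutants *Pmaip1* stood at 131.9 ± 5.44 RPKM, level with *Bax* at 130.2 ± 2.6, and *Cycs* at 36 ± 1.73 RPKM was clear of that middle group. The low end held *Bcl2l2*, *Cflar*, *Bak1* and *Bmf*, all under 1 RPKM in both groups. This order, and which genes stand level, hold for joined exon lengths and depend on them. The joined exons of *Trp53* have 4045 bases against 1867 for its longest protein-coding transcript, and those of *Diablo* 6155 against 3386. For *Bax* the lengths are 1339 and 1049 bases, and *Pmaip1* has 2646 by either measure.

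**Figure D3:**
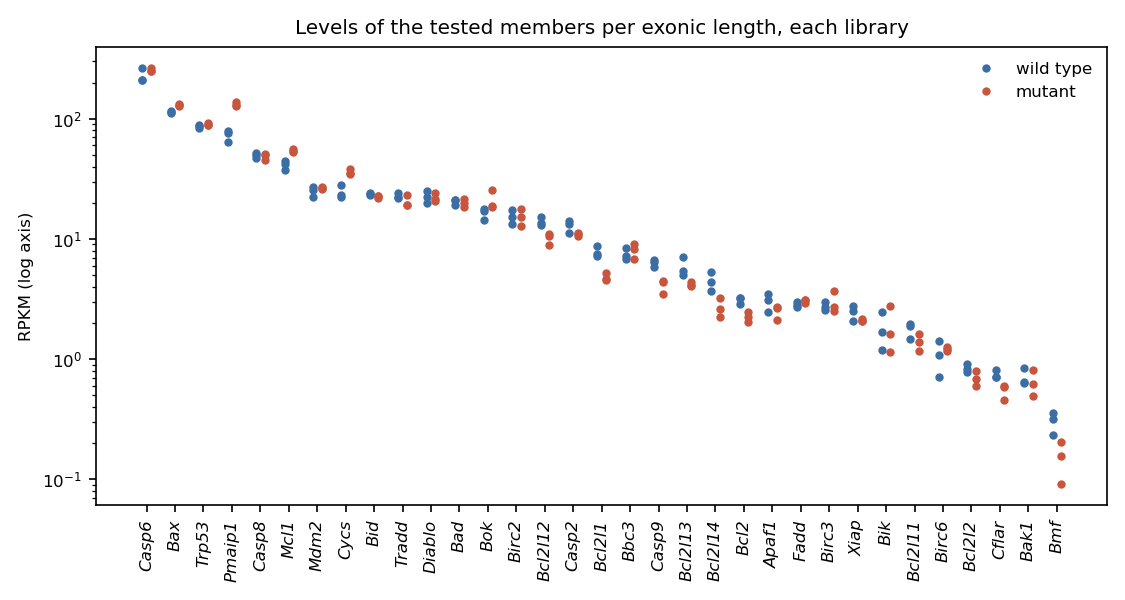
RPKM on a log axis for each wild type (blue) and mutant (red) library of the 33 tested apoptosis genes, ordered by their wild type mean. The order runs from *Casp6* (228.9 RPKM) to *Bmf* (0.303 RPKM), and *Pmaip1* moves from 73.1 RPKM in wild type to 131.9 RPKM in mutants.

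Fold changes in these libraries depended on joined exon length, which bears on several apoptosis genes. A loess curve of the log2 fold change over all tested genes ran from 0.19 at 512 bases of exon to -0.23 at 4096 bases. The median exon length was 4027 bases for genes called lower and 2704 bases for genes called higher. *Bcl2*, *Bcl2l1*, *Bcl2l13*, *Bcl2l14* and *Casp9* are all long by joined exons (4093 to 7191 bases), where the curve lies between -0.24 and -0.21. The longest protein-coding transcripts of *Bcl2l1*, *Bcl2l14* and *Casp9* have 2417, 2243 and 3897 bases, and the curve is at -0.09 at 2435 bases. A correction by transcript length was not run, so the corrected values rest on joined exons. After the curve was subtracted within the test, *Bcl2l1* was at -0.46 (adjusted p = 0.013), *Casp9* at -0.39 (0.043) and *Bcl2l12* at -0.39 (0.046), all still lower but none of them called. *Bcl2* was at -0.25 (adjusted p = 0.22), *Bcl2l13* at -0.26 (0.16) and *Bcl2l14* at -0.49 (0.059), no longer past 0.05. With the curve centred on its median before subtraction, an alternative chosen after seeing the data, *Bcl2l1* (-0.65, adjusted p = 0.0021), *Casp9* (-0.58, 0.0067) and *Bcl2l12* (-0.58, 0.0077) were called lower. *Bcl2* (-0.44, adjusted p = 0.043), *Bcl2l13* (-0.45, 0.025) and *Bcl2l14* (-0.68, 0.016) were then past 0.05.

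The 3 genes that rose were further from 0 after the uncentred correction: *Pmaip1* at 0.97, *Cycs* at 0.73 and *Mcl1* at 0.58, and *Mcl1* was then called as well. With the centred curve they were at 0.78, 0.54 and 0.39. *Trp53* (0.29, adjusted p = 0.003) and *Mdm2* (0.32, 0.0084) passed 0.05 under the uncentred correction and not under the centred one (0.10, adjusted p = 0.27, and 0.13, 0.29). Both corrections used their joined exon lengths, 4045 and 5070 bases, against 1867 and 3132 for their longest protein-coding transcripts. The median log2 fold change of all genes was -0.04 as tested, 0.10 with the uncentred correction, -0.09 with the centred one and -0.15 with scaling by library size alone. Of all calls, 32.3% were higher as tested, 66.3% with the uncentred correction, 25.9% with the centred one and 17.3% with library size alone. The median of the 20 tested pro-apoptotic genes was -0.02, that of the 10 anti-apoptotic genes was -0.11, and with the uncentred correction they were 0.11 and 0.08. Each of these lies close to the median of all genes under its own scaling. Why fold changes followed length was not tested.

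**Figure D4:**
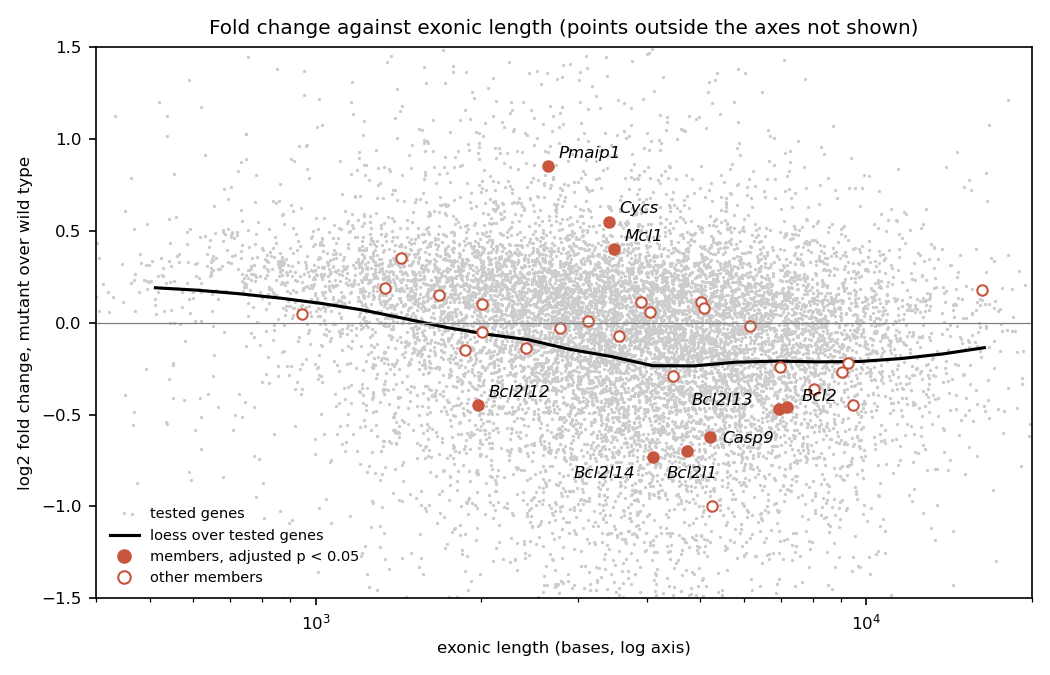
The log2 fold change of mutant over wild type against exon length in bases (log axis) for all tested genes (grey), with the loess curve (black) and the apoptosis genes (red, filled at an adjusted p under 0.05). The curve falls from 0.19 at 512 bases and flattens at -0.23 at 4096 bases. *Pmaip1*, *Cycs* and *Mcl1* lie above the curve and the 6 lower genes below it.

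The 250 bases before each start site were searched for 4 motifs, since TCF7L1 binds TCF/LEF sites and stress factors bind the cAMP response element (CRE). RefSeq start sites (GRCm38.p6) were given for 31 of the 34 genes, with 43 windows in all. *Bik*, *Pmaip1* and *Tradd* had no window. The windows below belong to the 2 genes with a TCF/LEF match and to 2 called genes with another match. They read 5′ to 3′ towards the start site, with the matched letters in capitals.
Bax: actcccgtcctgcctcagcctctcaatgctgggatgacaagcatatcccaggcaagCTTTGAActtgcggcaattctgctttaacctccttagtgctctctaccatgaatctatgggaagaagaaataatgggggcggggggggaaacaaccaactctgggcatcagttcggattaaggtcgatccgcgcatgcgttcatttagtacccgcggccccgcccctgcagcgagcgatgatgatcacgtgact
Birc2: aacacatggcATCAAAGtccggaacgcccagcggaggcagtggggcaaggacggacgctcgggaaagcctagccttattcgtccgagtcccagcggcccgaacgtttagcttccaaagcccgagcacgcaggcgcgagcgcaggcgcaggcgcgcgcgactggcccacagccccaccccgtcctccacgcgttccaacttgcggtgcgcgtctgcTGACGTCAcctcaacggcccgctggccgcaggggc
Bcl2l1: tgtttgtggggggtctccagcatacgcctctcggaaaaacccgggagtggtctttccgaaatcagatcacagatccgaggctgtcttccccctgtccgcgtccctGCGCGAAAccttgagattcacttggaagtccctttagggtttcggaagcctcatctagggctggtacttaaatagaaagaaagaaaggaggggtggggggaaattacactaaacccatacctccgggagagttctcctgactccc
Cycs: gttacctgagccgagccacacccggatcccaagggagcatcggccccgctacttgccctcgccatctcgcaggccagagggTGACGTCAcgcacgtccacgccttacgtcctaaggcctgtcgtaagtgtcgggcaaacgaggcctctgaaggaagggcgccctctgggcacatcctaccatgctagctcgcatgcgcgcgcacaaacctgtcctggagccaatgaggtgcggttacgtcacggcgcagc
They lie on the minus strand at chr7:45466899-45467148, chr9:7837058-7837307, chr2:152830718-152830967 and chr6:50566570-50566819. A TCF/LEF motif (CTTTGAA or CTTTGAT, either strand) was in 2 windows, 194 bases upstream in *Bax* and 240 bases upstream in *Birc2*, or 4.65% of the 43 against 7.48% of all 32851 windows. The CRE (TGACGTCA) was in 2 windows, 169 bases upstream in *Cycs* and 35 bases upstream in *Birc2*, 4.65% against 1.55%. An E2F motif (TTTGGCGC, TTTCGCGC or TTTCCCGC) was in 3 windows, of *Bcl2l1*, *Casp2* and *Fadd*, 6.98% against 1.53%, and in *Bcl2l1* it lay at 1 of 3 start sites, 145 bases upstream. The NRF1 motif was in none of the 43 windows and in 0.782% of all windows. A match describes the letters of a window and not the binding of a factor.

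The rest of the pathway was read from 80 other cell death genes, of which 67 were tested. Past an adjusted p of 0.05, 16 genes had risen and 15 had fallen, and their median log2 fold change was 0.05. This is 46.3% of the 67 (23.9% higher and 22.4% lower), against 28.7% of all genes (13.6% and 15.1%), whose median was -0.04. The lists were chosen with earlier results of these data known, so these shares and those of each list below only describe the genes chosen. The higher share includes *Tnfsf10*, which passed the filter on low counts only through the mutant libraries. With the uncentred length correction the split was 21 higher and 4 lower, or 31.3% and 5.97%, against 23.1% and 8.86% of all genes. With the centred correction it was 13 higher and 15 lower. In this and the following lists, the length correction is the uncentred one unless stated. Among 8 genes of the execution phase, 1 was lower and none higher. *Parp1*, a DNA repair enzyme that executioners cleave, fell by 0.34 (adjusted p = 0.0292), with overlap through wild type replicate 3. Over the fits without 1 library, the log2 fold change of *Parp1* ranged from -0.47 to -0.26 and its adjusted p from 0.00034 to 0.14. Its adjusted p was 0.14 without wild type replicate 1, 0.14 without wild type replicate 2, 0.069 without mutant replicate 1, 0.13 without mutant replicate 2 and 0.42 with the length correction. Under the centred correction, *Parp1* and the other genes named here that lose 0.05 with the uncentred one, *Aifm2*, *Tnfrsf21*, *Cdkn1a*, *Aen* and *Btg2*, had adjusted p-values of 0.0043 to 0.046.

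All 5 tested genes of the other IAPs were higher at an adjusted p of 0.05, against 13.6% of all genes. *Birc5* (survivin), which also serves chromosome segregation in dividing cells, had 4628.8, 5121.9 and 5796.7 counts in wild type libraries and 7593.9, 8597.1 and 7769.9 in mutants, and rose by 0.62 (SE 0.08, adjusted p = 7.36e-05). The *Naip* genes, which sense bacterial proteins for the inflammasome and are named after an IAP domain, rose from low levels. *Naip5* went from 65.9 ± 19.6 to 315.6 ± 24.7 counts (log2 2.26, adjusted p = 5.36e-06) and *Naip6* by 1.81 (adjusted p = 0.000504). *Naip2* rose by 0.78 (adjusted p = 0.00807), and *Naip1* by 1.36 (adjusted p = 0.0164, and 0.069, 0.06 and 0.052 without wild type replicate 1 and mutant replicates 2 and 3). *Naip1*, *Naip5* and *Naip6* each have a near-identical copy over 56.7% to 74.3% of their transcripts, so how their reads divide is uncertain.

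Of 9 other mitochondrial genes, 4 were higher (44.4%, against 13.6% of all genes) and 2 lower (22.2% against 15.1%), and with the centred length correction 2 were higher and 1 lower. *Vdac2*, the outer membrane channel that keeps BAK in place, rose by 0.36 (adjusted p = 0.00196), with a near-identical copy over 74.3% of its transcript. *Aifm2* fell by 0.51 (adjusted p = 0.0178), and the adjusted p was 0.083 without wild type replicate 1, 0.053 and 0.064 without mutant replicates 1 and 3, and 0.18 with the length correction. Of 10 tested death receptor and necroptosis genes, 2 were higher and 2 lower (20.0% each). *Fas*, the receptor of FAS ligand, had 64.7, 77.4 and 59.9 counts in wild type libraries and 11.4, 30.9 and 7.74 in mutants, and fell by 2 on the log2 scale (SE 0.51, adjusted p = 0.00867). *Tnfsf10* (TRAIL) had 0 counts in every wild type library and 10, 19 and 15 in the mutants, at least 15.5-fold higher against 3 counts over the wild type group (adjusted p = 0.00237). This gene, 1 of the 2 higher ones, passed the filter on low counts only through the mutant libraries. Its adjusted p and its place in that count therefore rest on the group in which it was high. *Tnfrsf21* (DR6) fell by 0.55 (adjusted p = 0.0131, 0.079 without wild type replicate 1 and 0.086 with the length correction).

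The p53 targets and regulators had 3 higher (11.5%, against 13.6% of all genes) and 9 lower genes (34.6% against 15.1%) of 26 tested. Their median was -0.23, against -0.04 for all genes. With the uncentred length correction 4 were higher and 2 lower, with medians of -0.05 and 0.10, and with the centred one 2 were higher and 9 lower, with medians of -0.24 and -0.09. *Cdkn1a* (p21), the cell cycle inhibitor most used as a p53 readout, had 2132.5, 2043.5 and 2030.1 counts in wild type libraries and 1906.2, 1603.8 and 1579.6 in mutants. It fell by 0.29 (adjusted p = 0.0289), and the adjusted p lay between 0.064 and 0.13 without wild type replicate 1 or 2 or mutant replicate 2 or 3, and was 0.092 with the length correction. *Trp53inp1*, a nuclear cofactor of p53, had 418.2, 286.2 and 286.1 counts in wild type libraries and 139.8, 123.5 and 137.2 in mutants, and fell by 1.31 (SE 0.20, adjusted p = 0.000256). *Ei24*, an endoplasmic reticulum protein, fell by 0.72 (adjusted p = 0.000829). *Aen*, a nuclease, fell by 0.47 (adjusted p = 0.0132, 0.07 without wild type replicate 1 and 0.15 with the length correction). *Btg2* fell by 0.30 (adjusted p = 0.0127, 0.059 without wild type replicate 2, 0.077 without mutant replicate 2 and 0.12 with the length correction). *Tigar*, which lowers glycolytic flux, rose by 0.54 (adjusted p = 0.00357). The other two higher genes, named after their values were seen, were *Ckap2*, a microtubule-associated protein (0.35, adjusted p = 0.00453), and *Rps27l*, a ribosomal protein paralogue (0.34, 0.00821). The adjusted p of *Rps27l* was 0.056 without mutant replicate 2 and 0.095 and 0.97 with the uncentred and centred length corrections.

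Of the 9 stress factors that can induce BH3-only genes, 2 were higher (22.2%, against 13.6% of all genes) and 1 was lower (11.1% against 15.1%). *Ddit3* (CHOP), which responds to endoplasmic reticulum stress, had 314.1, 374.8 and 438.2 counts in wild type libraries and 674.1, 824.2 and 528.8 in mutants, and rose by 0.85 (SE 0.17, adjusted p = 0.00204). *Atf4*, the factor of the integrated stress response that acts upstream of *Ddit3*, had 4968.2, 5117.2 and 5318.6 counts in wild type libraries and 6818.3, 7365 and 7192.5 in mutants, and rose by 0.47 (SE 0.07, adjusted p = 0.000132). *Jun*, an AP-1 factor driven by stress kinases, had 5747.5, 5895.6 and 5854.7 counts in wild type libraries and 2998.6, 2500.4 and 2625 in mutants. Its mutant libraries were far below the wild type, and it fell by 1.11 (SE 0.08, adjusted p = 7.49e-08).

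**Figure D5:**
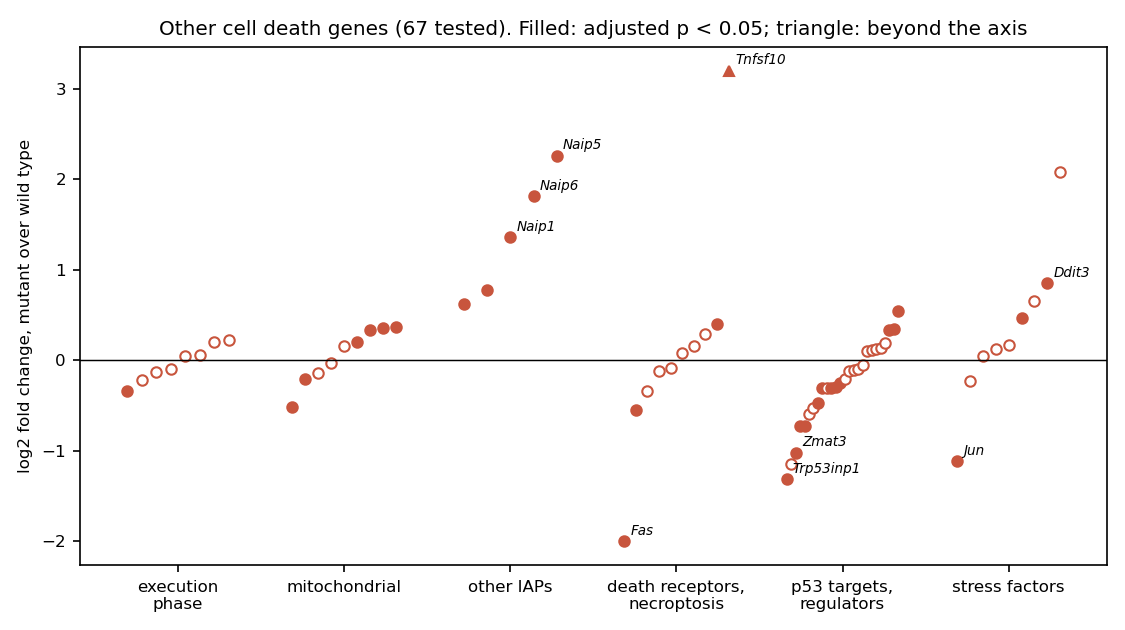
The log2 fold change of mutant over wild type for the 67 tested genes of the other cell death lists, 1 point a gene, filled where the adjusted p is under 0.05; *Tnfsf10*, with 0 counts in wild type, is drawn as a triangle beyond the axis. All 5 other IAP genes lie above 0, while *Fas* (-2), *Trp53inp1* (-1.31) and *Jun* (-1.11) lie well below it.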

How the data were processed

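RNA-sequencing counts of 6 libraries were analysed, 3 for each genotype, grouped by the genotype label. The authors made cDNA from 500 sorted cells with 15 PCR cycles, mapped reads with STAR 2.5.2b to mm9, counted uniquely mapping reads with featureCounts 1.5.1 on a UCSC gene model and deposited raw counts per gene. Reads carry no molecular identifiers, so the lower bound on the fold of *Tnfsf10* covers counting error only. The SEs and intervals of log2 fold changes come from the edgeR quasi-likelihood fits and include the spread between libraries of a group.

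For genes passing filterByExpr, edgeR 4.0.16 (R 4.3.3) gave quasi-likelihood tests of genotype, with TMM scaling and Benjamini-Hochberg adjustment. A mean count of at least 50 replaced the study's RPKM limit, which is an alternative. The common dispersion was 0.0209. The script was tested on simulated counts. An exact permutation test of 3 against 3 cannot go below 0.1, so none was run. Normalised counts are TMM-scaled. RPKM used the joined length of all GENCODE M1 exons of a gene (98.5% of tested genes), not the UCSC model used for counting. The apoptosis genes and lists were chosen with earlier results of these data known. All 34 apoptosis genes were named, and, of the 80 other genes, *Birc5*, *Parp1*, *Cdkn1a* and up to 8 with the smallest adjusted p per direction, to which *Naip1*, *Naip2*, *Ckap2* and *Rps27l* were added after their values were seen. Other genes fixed by this rule are not reported here. Near-identical copies were sought with BLAST+ 2.17.0 (identity of at least 95%). Alternatives were DESeq2 1.42.0, other scalings and filters, a length correction (loess), a replicate block and leaving out each library.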

Additional observations from a re-analysis of the deposited data

How the results depend on the processing

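Each of the 9 apoptosis genes with an adjusted p under 0.05 kept its direction under all 14 alternatives, and *Pmaip1*, *Bcl2l1*, *Mcl1*, *Casp9* and *Cycs* stayed under 0.05 in all of them, *Bcl2* and *Bcl2l12* in 9, *Bcl2l13* in 10 and *Bcl2l14* in 12. With library size alone, 1 apoptosis gene was called higher and 4 lower, and 200 and 958 of all genes were called higher and lower. With the uncentred length correction, none of the apoptosis genes was called lower (0), and 801 and 408 of all genes were called higher and lower. At 0.05, 5 apoptosis genes were then higher (15.2%, against 23.1% of all genes) and 3 lower (9.09% against 8.86%), and 4 other cell death genes were lower. With the curve centred on its median, an alternative chosen after seeing the data, 2 apoptosis genes were called higher and 3 lower, 3 were higher and 6 lower at 0.05, 13 other cell death genes were higher and 15 lower, and 269 and 770 of all genes were called. A log2 fold change of at least 1 left 0 apoptosis genes called in either direction, with 85 and 284 of all genes. With no minimum fold, 3 apoptosis genes were called higher and 2 lower, with 902 and 875 of all genes. The RPKM limit of 50 left 1 apoptosis gene higher and 0 lower, with 107 and 29 of all genes.

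Leaving out 1 library gave 1 to 2 apoptosis genes called higher and 0 to 3 lower (0 without wild type replicate 1), 3 to 5 higher and 2 to 6 lower at 0.05 (2, *Bcl2l1* and *Casp9*, without mutant replicate 1), 12 to 19 other cell death genes higher and 5 to 13 lower, and 260 to 516 and 405 to 867 of all genes. The highest counts of all genes, 516 and 867, came without wild type replicate 3. By a chi-square per gene on raw counts, that library lay 16 and 17.9 from wild type replicates 1 and 2, which were 8.57 apart. It lay 27.9 to 32.3 from the mutant libraries, and wild type replicates 1 and 2 lay 39 to 54.2 from them. Why it stood apart was not tested. The labels do not say whether same-numbered samples were paired. Deviations of same-numbered libraries had correlations of 0.0097, -0.045 and -0.018, which show no shared shift but cannot settle the pairing. The replicate block gave 2 apoptosis genes called higher and 2 lower, 339 and 691 of all genes and, at 0.05, 14 and 13 other cell death genes.

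Some genes that were not past 0.05 changed sign. With library size alone, *Bik* was at -0.0616, *Bbc3* at -0.0088, *Birc2* at -0.10, *Trp53* at -0.0439 and *Mdm2* at -0.0212. With the length correction, *Bad* was at 0.014, *Bid* at 0.12, *Bik* at -0.0661, *Casp8* at 0.10 and *Diablo* at 0.19. With the centred correction, *Bax* was at -0.0465, *Bik* at -0.25, *Bbc3* at -0.0314, *Casp6* at -0.0248, *Diablo* at 0.001 and *Birc2* at -0.0189. *Diablo* was at 0.0024 with DESeq2 and 0.0013 with RLE scaling, and *Birc2* at -0.0075 with a mean count filter of 50. *Bax* passed 0.05 with DESeq2 (adjusted p 0.022) and RLE (0.047). Without 1 library, *Bak1* ranged from -0.35 to 0.0271, *Bad* from -0.10 to 0.0129, *Bik* from -0.36 to 0.37, *Bbc3* from -0.0047 to 0.21, *Casp8* from -0.0662 to 0.0288, *Diablo* from -0.10 to 0.0883, *Birc2* from -0.11 to 0.12, *Birc3* from -0.076 to 0.22 and *Birc6* from -0.0277 to 0.43. The cause of these shifts was not tested. With 3 libraries a group, differences of scarce genes such as *Bmf*, *Bik* and *Bak1* could not be set more narrowly than about 1 log2 unit either way.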
